A study of Mus musculus with 4 samples.

Results

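The Notch pathway genes described here were the receptors Notch1, Notch2 and Notch3, the ligands Dll1, Dll4, Jag1 and Jag2, the nuclear factor Rbpj and the targets Hes1 and Nrarp. They were taken by symbol, as the 10 rows of a table of 50600 genes that carry these names, and all 10 passed the filter on low counts that left 14861 genes to test. Poly(A) RNA was sequenced from primary cells of the colonic epithelium, all from strain C57BL/6, in 2 libraries labelled Mettl14 knockout (KO) and 2 labelled Mettl14 wild type (WT). Mettl14 encodes a subunit of the enzyme complex that places N6-methyladenosine (m6A) on mRNA. The sources used here give neither the promoter or cell type that drives the deletion, nor the animals' age, nor whether animals were pooled. The titles of all 4 samples share the code C-2W, which no source used here explains. Total counts ran from 22730188 to 22780451 in KO libraries and from 22136440 to 24991060 in WT libraries. Counts of Xist and of Y-linked genes put 1 male and 1 female library in each genotype.

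Notch signalling passes between touching cells. A Delta-like or Jagged ligand on one cell binds a Notch receptor on its neighbour, the receptor is cleaved by an ADAM protease and then by gamma-secretase, and the freed intracellular part joins RBPJ on DNA to switch on targets such as Hes1. In the intestine HES1 represses Atoh1, so crypt cells with high Notch activity become absorptive, while cells with low activity become secretory and themselves display Delta-like ligands.

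Values are library-scaled counts after correction by trimmed mean of M-values (CPM), and each test is edgeR's quasi-likelihood test of KO against WT with Benjamini-Hochberg adjustment over all genes tested. The threshold was an adjusted p of 0.05. Mettl14 itself had 3.99 and 3.94 CPM in KO libraries, against 11.7 and 8.67 CPM in WT libraries. Its log2 fold change was -1.36 (SE 0.22, edgeR adjusted p = 0.0504), just short of the threshold. It was called under 8 of 15 alternative settings, by DESeq2 among them (adjusted p = 0.00172, range 0.00172 to 0.378 over the alternatives).

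No Notch gene of the 10 passed the threshold, where 3.61% of all genes did (1.72% higher and 1.90% lower in KO). DESeq2, which called 12.3% of all genes, and limma-voom, which called 3.92%, also called 0 of the 10. At an unadjusted p under 0.05 by edgeR, Notch2, Jag1 and Rbpj were higher and Hes1 was lower, which is 4 of 10 genes beside 30.5% of all genes. The receptors and ligands of this group thus had higher values in KO or overlapped between genotypes, while the targets Hes1 and Nrarp were lower in each KO library than in either WT library. KO and WT values did not overlap for 7 of the 10 genes, 5 higher and 2 lower in KO, and did not overlap for 63.3% of all genes tested (31.1% higher and 32.2% lower in KO). Taken in either direction, these shares are near those of all genes. By direction, higher genes were more frequent and lower genes less frequent than among all genes. With only 10 genes and no test over the group, this does not set the Notch genes apart. The median log2 fold change was 0.16 over the 10 genes and -0.01 over all genes tested.

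**Figure D1:**
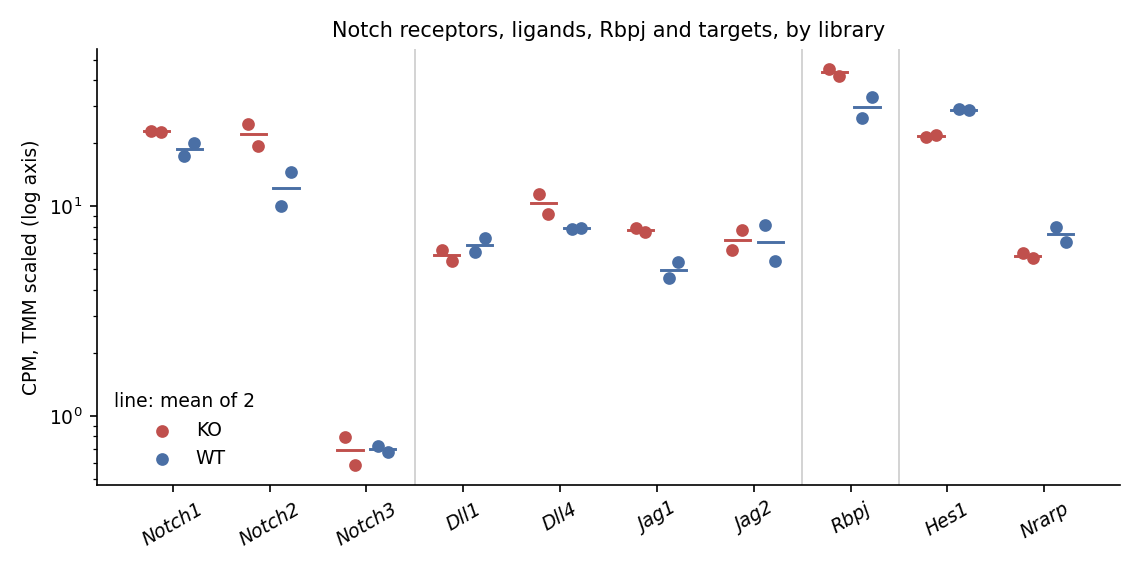
Level of each Notch gene in CPM on a log axis, with KO libraries as red points on the left, WT libraries as blue points on the right and a line at the mean of 2 libraries. Receptors, ligands, Rbpj and the targets are divided by vertical lines. Hes1 sat near 21.6 CPM in KO and 28.9 CPM in WT, whereas the KO points of Notch2, Jag1 and Rbpj all lay above the WT points.

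Sequences were available in RefSeq promoter tables (GRCm38.p6) for 9 of the 10 genes, as 250 bases before to 50 bases after each start, with no entry for Hes1. The core letters that RBPJ is known to bind, TGGGAA, were searched on both strands. They occurred in 25.6% of the 32851 promoters searched. That set left out the promoters of 1 chromosome, on which none of the 10 genes lies. Among the 9 Notch genes with an entry only Rbpj itself had a match, with 2 in its first listed promoter, 1 of which also lies in the second, overlapping one. That promoter lies on the plus strand at chr5:53590096-53590395 and is printed because Rbpj, the factor that reads these letters, had the highest level per kb of transcript among the genes with higher KO values. Capitals mark the letters TGGGAA, beginning 149 bases before the start, and their reverse complement, beginning 65 bases before it.
Rbpj promoter: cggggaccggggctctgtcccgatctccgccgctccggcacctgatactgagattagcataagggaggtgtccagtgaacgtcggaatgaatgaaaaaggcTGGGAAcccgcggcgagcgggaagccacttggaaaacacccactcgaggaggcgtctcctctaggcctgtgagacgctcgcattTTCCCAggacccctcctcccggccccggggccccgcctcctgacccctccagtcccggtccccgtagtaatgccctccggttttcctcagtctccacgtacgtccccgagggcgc

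The transcripts were also searched for GGACT, a common form of the sequence context in which m6A is placed. The principal transcript of each gene in GENCODE M21 (GRCm38) was used, and a match says nothing of methylation in these cells. Over 13530 tested genes with such a transcript the median density was 1.06 per kb. Dll4 had 2.67 per kb, a density above that of 96% of these genes, and Rbpj had 0.368 per kb, above 12.4%. The coding parts of Rbpj and Nrarp held no match. The match nearest the end of the coding sequence follows with its flanks, GGACT in capitals, for Hes1 and Dll4, where it lies 23 and 65 bases from that end, and for Notch2 and Jag1, where it lies 1856 and 1991 bases away. The windows are exonic and coding, at chr16:30067388-30067412 (plus strand), chr2:119334080-119334104 (plus), chr3:98142959-98142983 (plus) and chr2:137090902-137090926 (minus), in that order.
Hes1: cgctcacttcGGACTccatgtggag
Dll4: gctctcccagGGACTctatgtacca
Notch2: aagatgctgaGGACTcttctgccaa
Jag1: agtgccccgaGGACTatgagggcaa

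Among the receptors, Notch2 had the largest difference between genotypes. Notch2 (ENSMUSG00000027878, chromosome 3, 98013527 to 98150361) encodes one of the receptors that crypt cells carry. It had 24.7 and 19.4 CPM in KO libraries (557 and 498 counts), against 9.97 and 14.5 CPM in WT libraries (207 and 345 counts). Both KO libraries were above both WT libraries, and the lower WT value was that of replicate 1. The log2 fold change was 0.85 (SE 0.24, 95% interval 0.22 to 1.47, edgeR adjusted p = 0.1). Notch2 passed with sex as a covariate (edgeR adjusted p = 0.0339), a fit that called 9.48% of all genes. It did not pass by DESeq2 (adjusted p = 0.0516). The log2 fold change was 1.18 without WT replicate 2 and 0.59 without WT replicate 1.

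Notch1 (ENSMUSG00000026923, chromosome 2, 26457903 to 26516663) encodes the receptor best known from intestinal crypts. It had 22.9 and 22.6 CPM in KO libraries, against 17.3 and 20.0 CPM in WT libraries. The groups did not overlap, but the gap from the lowest KO value to the higher WT value was similar to the gap between the WT libraries. Its log2 fold change was 0.29 (SE 0.13, 95% interval -0.04 to 0.62, edgeR adjusted p = 0.206). A pair of processed transcripts on the opposite strand shares exonic bases with it, with 24 to 29 counts (0610009E02Rik) and 2 to 5 counts (Gm13568) per library, and no source used here gives the strand of the counting.

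Notch3 (ENSMUSG00000038146, chromosome 17, 32120820 to 32166852), a receptor known chiefly from pericytes and smooth muscle, had few reads. It had 0.798 and 0.585 CPM in KO libraries (18 and 15 counts), against 0.723 and 0.673 CPM in WT libraries (15 and 16 counts). The genotypes overlapped, and the 95% interval of the log2 fold change, -1.19 to 1.15, allows a difference of more than 2-fold in either direction. Counted per kb of transcript, Notch1 made up 49.6% and 55.4% of the summed level of these receptors in KO libraries, against 63.7% and 59.0% in WT libraries. Notch2 made up 48.3% and 42.9% in KO libraries, against 33.2% and 38.7% in WT libraries. Among Notch1, Notch2 and Notch3, the share of Notch2 transcript was thus higher in both KO libraries. Notch4, which is not in this sum, had 28.0 and 20.3 CPM in KO libraries, against 7.23 and 20.2 CPM in WT libraries. Shares of all 4 receptors would therefore be different.

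Among the ligands, Jag1 differed most. Jag1 (ENSMUSG00000027276, chromosome 2, 137081456 to 137116644) encodes a Jagged-type ligand. It had 7.89 and 7.52 CPM in KO libraries, against 4.53 and 5.43 CPM in WT libraries. The groups were apart by more than the spread within either of them. The log2 fold change was 0.63 (SE 0.19, 95% interval 0.12 to 1.13, edgeR adjusted p = 0.116), and no alternative setting called it, with adjusted p from 0.0731 to 0.454.

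Dll4 (ENSMUSG00000027314, chromosome 2, 119325784 to 119335962) is one of the Delta-like ligands that secretory crypt cells display. It had 11.4 and 9.20 CPM in KO libraries, against 7.81 and 7.91 CPM in WT libraries. The WT libraries were nearly equal, and the KO libraries lay above them and further apart from each other. The log2 fold change was 0.39 (SE 0.18, 95% interval -0.07 to 0.86, edgeR adjusted p = 0.215). It was 0.21 without KO replicate 1 and 0.56 without KO replicate 2. The processed transcript Gm14207 overlaps its exons on the opposite strand, with 13 and 32 counts in KO libraries and 40 and 27 counts in WT libraries.

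Dll1 (ENSMUSG00000014773, chromosome 17, 15367354 to 15376872), the other Delta-like ligand of secretory cells, did not follow Dll4. It had 6.21 and 5.46 CPM in KO libraries, against 6.02 and 7.03 CPM in WT libraries. The genotypes overlapped, with a log2 fold change of -0.16 (95% interval -0.68 to 0.35). The noncoding gene A930024N18Rik overlaps the exons of Dll1 on the opposite strand, with 13 and 5 counts in KO libraries and 15 and 19 counts in WT libraries. The difference between the fold changes of Dll4 and Dll1 was not tested. The ratio of Dll4 to Dll1 CPM was 1.84 and 1.69 in KO libraries, against 1.30 and 1.13 in WT libraries. Jag2 (ENSMUSG00000002799, chromosome 12, 112907819 to 112929776), the second Jagged-type ligand, had 6.16 and 7.72 CPM in KO libraries, against 8.09 and 5.47 CPM in WT libraries. Its WT values enclosed both KO values, and the 95% interval of the log2 fold change was -0.66 to 0.74.

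Rbpj had higher values in both KO libraries. Rbpj (ENSMUSG00000039191, chromosome 5, 53466152 to 53657362) encodes the DNA-binding factor through which all Notch receptors act, a repressor when no receptor fragment is bound. It had 45.0 and 41.9 CPM in KO libraries (1016 and 1074 counts), against 26.3 and 33.2 CPM in WT libraries (546 and 788 counts). Every KO value was above every WT value. The log2 fold change was 0.55 (SE 0.15, 95% interval 0.16 to 0.93, edgeR adjusted p = 0.0906). It passed without WT replicate 2 (0.76, adjusted p = 0.0257), and with sex as a covariate its edgeR adjusted p was 0.0547, within a range of 0.0257 to 0.397 over all alternatives.

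Hes1, the main effector of Notch in the crypt, had lower values in both KO libraries. Hes1 (ENSMUSG00000022528, chromosome 16, 30064384 to 30067796) encodes a basic helix-loop-helix repressor. It had 21.4 and 21.8 CPM in KO libraries (482 and 560 counts), against 28.9 and 28.8 CPM in WT libraries (600 and 685 counts). The libraries of each genotype agreed closely and the genotypes did not overlap, but 2 libraries per genotype measure spread poorly. The log2 fold change was -0.42 (SE 0.10, 95% interval -0.68 to -0.15, edgeR adjusted p = 0.0783). DESeq2 gave Hes1 an adjusted p of 0.203, and edgeR with library size scaling gave 0.354. Its adjusted p was from 0.0757 to 0.419 over the alternatives, and the lowest and highest log2 fold changes among them were -0.43 and -0.25.

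Nrarp (ENSMUSG00000078202, chromosome 2, 25180758 to 25183339), a Notch target whose product feeds back to limit the receptor's nuclear complex, was lower by a similar amount. It had 5.99 and 5.65 CPM in KO libraries, against 7.95 and 6.77 CPM in WT libraries. Both KO values were below both WT values. The log2 fold change was -0.34 (SE 0.19, 95% interval -0.83 to 0.15, edgeR adjusted p = 0.283). The antisense gene Gm38287 overlaps the exons of Nrarp, with 8 and 1 counts in KO libraries and 0 and 0 counts in WT libraries. Set against Rbpj, the CPM ratio of Hes1 was 0.474 and 0.521 in KO libraries, against 1.10 and 0.869 in WT libraries. The ratio of Nrarp to Rbpj was 0.133 and 0.135 in KO libraries, against 0.302 and 0.204 in WT libraries. That these ratios did not overlap between genotypes follows from the lower Hes1 and Nrarp and the higher Rbpj values, and they were not tested.

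**Figure D2:**
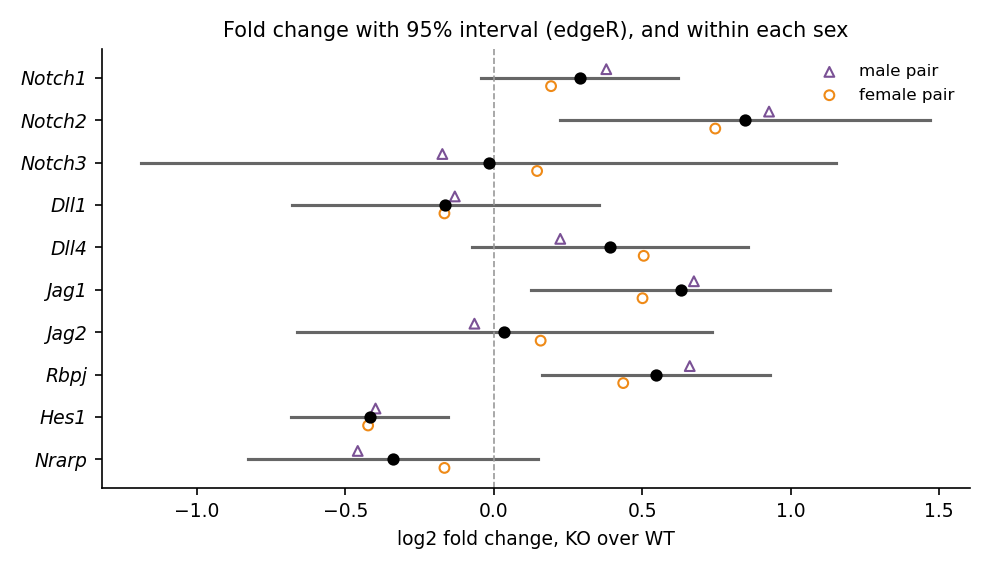
Log2 fold change of KO over WT for each Notch gene (black point) with its 95% interval (line) from the edgeR fit, and the log2 ratio within the male pair (triangle) and the female pair (open circle) of libraries. Notch2 was at 0.93 in males and 0.75 in females, Hes1 at -0.40 and -0.42, and only Notch3 and Jag2 had triangles and circles on opposite sides of 0.

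Within each sex, 1 KO library could be set against 1 WT library, as log2 ratios of CPM with an offset of 0.5. Hes1 was lower in KO by nearly the same ratio in both sexes, at -0.40 in males and -0.42 in females. Notch2 was at 0.93 and 0.75, Jag1 at 0.67 and 0.50, and Rbpj at 0.66 and 0.44, in males and females in that order. Nrarp was at -0.46 in males and -0.17 in females. The patterns over the 4 libraries that were closest to each other were those of Jag1 and Rbpj, with a distance of 0.0805 between their mean-centred log2 CPM, and those of Hes1 and Nrarp, with 0.194. With 4 libraries this describes these samples and no more.

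Levels of different genes were compared as CPM per kb of the principal transcript. Hes1 led in both genotypes, with 14.7 ± 0.217 in KO and 19.7 ± 0.0382 CPM per kb in WT (SD, n = 2 each). Rbpj followed with 7.99 ± 0.415 in KO and 5.47 ± 0.891 in WT. Dll4, Notch1, Nrarp, Notch2, Dll1, Jag1 and Jag2 came next in KO, from 2.75 to 1.36 CPM per kb, and Notch3 was last with 0.0862. In KO libraries the neighbours Nrarp and Notch2, and Jag1 and Jag2, overlapped. In WT libraries the order after Rbpj was Nrarp, Dll4, Notch1, Dll1, Jag2, Notch2, Jag1 and Notch3. There the neighbours Dll4 and Notch1, Notch1 and Dll1, Jag2 and Notch2, and Notch2 and Jag1 overlapped. Nrarp exceeded Rbpj in WT when the length of all annotated exons, 12750 bases for Rbpj, was used in place of the transcript's 5440 bases.

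The rest of the pathway was described from lists of 56 genes, 48 of them tested, arranged by step. Of these, 1 was called higher, Ccnd1, and 1 lower, Itch, beside 1.72% and 1.90% of all genes tested, a share near the background, and the median log2 fold change was 0.10. DESeq2 called 7 of the pathway genes, beside 12.3% of all genes. Itch, a ubiquitin ligase that marks Notch for degradation among many other substrates, fell to 56.4 and 54.0 CPM in KO libraries, against 91.7 and 93.3 CPM in WT libraries (log2 fold change -0.74, SE 0.10, edgeR adjusted p = 0.0441). It was not called with library size scaling (-0.58, adjusted p = 0.0634, range 0.00104 to 0.378 over the alternatives). Ccnd1, the G1 cyclin D1, which Wnt signalling also induces, rose to 60.5 and 57.8 CPM in KO libraries, against 28.3 and 30.4 CPM in WT libraries (1.01, SE 0.10, edgeR adjusted p = 0.0434). Neither was called without KO replicate 1 or without KO replicate 2, where edgeR called 0 genes in all.

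Receptor cleavage genes had log2 fold changes of both signs, and edgeR called none. DESeq2 called 2 of the 10 tested, Psenen among them, beside 12.3% of all genes. Psenen, a subunit of gamma-secretase, was lower at an unadjusted p under 0.05. It was at 28.9 ± 1.99 CPM in KO and 43.9 ± 0.823 CPM in WT (SD, n = 2 each), a log2 fold change of -0.60 (edgeR adjusted p = 0.0525). DESeq2 called Psenen (adjusted p = 0.032), as did edgeR with sex as a covariate (adjusted p = 0.0447). The scaffold subunit Ncstn was at 219 ± 8.18 CPM in KO and 177 ± 21.2 CPM in WT (0.31, edgeR adjusted p = 0.217). The protease genes Adam10 (-0.10) and Adam17 (0.14) overlapped between genotypes. Aph1c was higher at an unadjusted p under 0.05 (1.23), at 2.03 CPM in KO and 0.867 CPM in WT. Aph1c and Aph1b (-0.79) are close copies, so reads may have been split between them.

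In the remaining steps, receptor glycosylation showed Pofut1, which adds O-fucose to the receptor, at 31.7 ± 1.51 CPM in KO and 30.8 ± 4.31 CPM in WT, and Rfng at 12.7 ± 0.919 and 13.6 ± 1.91 CPM (KO then WT). Lfng, another Fringe, was higher at an unadjusted p under 0.05 (0.36). Of the ubiquitin ligases that activate ligands, Mib1 (-0.11) and Neurl1b (-0.16) did not pass, Mib2 (-0.67) was lower and Neurl1a (0.90) was higher at an unadjusted p under 0.05. Among coactivators Ep300 (0.11) and Snw1 (-0.11) did not pass. Maml1, which holds the receptor fragment on RBPJ, was at 30.1 ± 1.80 CPM in KO and 19.2 ± 2.36 CPM in WT (0.65, edgeR adjusted p = 0.0637). DESeq2 called Maml1 (adjusted p = 0.0446). Among corepressors Ncor1 (-0.14) and Spen (0.34) did not pass, and Cir1 (-0.58) was lower at an unadjusted p under 0.05. In all, 7 of the 48 genes were higher and 7 lower at that level, beside 14.8% and 15.7% of all genes tested. Genes other than the called ones and the most abundant pair of each step were chosen after their values were seen.

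**Figure D3:**
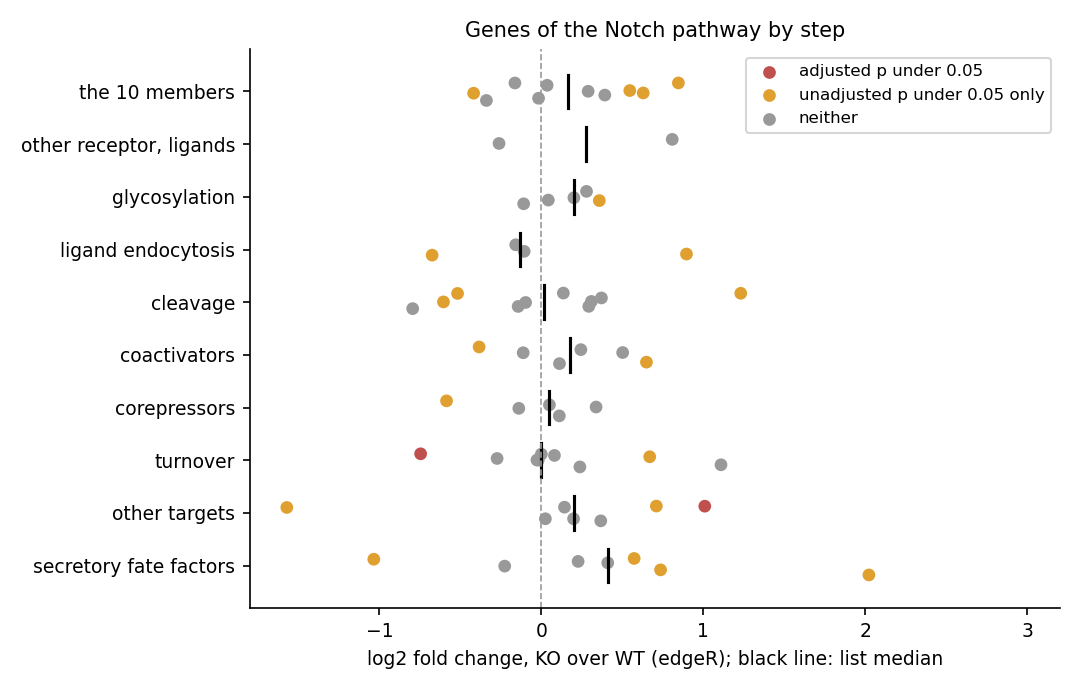
Log2 fold change of KO over WT (edgeR) for the tested genes of each step of the Notch pathway, 1 point a gene, with a black line at each list's median. Red points passed an adjusted p of 0.05 (Itch and Ccnd1), and orange points passed only an unadjusted p of 0.05, on both sides of 0 in 6 of the 10 lists.

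Most other members of the Hes and Hey family were low or not called, and Hes2 differed most. Hes6 was at 38.9 ± 1.96 CPM in KO and 33.9 ± 1.52 CPM in WT (log2 fold change 0.20, edgeR adjusted p = 0.259). Hey1 and Heyl were near 1 CPM or below in all libraries, and Hes3, Hes5, Hes7 and Hey2 did not reach the filter on counts. Hes2 was lower at an unadjusted p under 0.05, at 1.76 ± 0.544 CPM in KO and 5.26 ± 1.42 CPM in WT (-1.57, edgeR adjusted p = 0.0731). DESeq2 called Hes2 (adjusted p = 0.0158), as did edgeR with sex as a covariate (adjusted p = 0.0345), within a range of 0.0158 to 0.378 over the alternatives. Sox9, a transcription factor of crypt progenitors that is also a Wnt target, was at 20.5 ± 1.21 CPM in KO and 12.6 ± 0.0875 CPM in WT (0.71, edgeR adjusted p = 0.0525). DESeq2 called Sox9 (adjusted p = 0.0254), as did edgeR with sex as a covariate (adjusted p = 0.044).

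The secretory fate factors that Notch holds in check included none called by edgeR over all genes, with 3 higher and 1 lower of 7 tested at an unadjusted p under 0.05, beside 14.8% and 15.7% of all genes. Atoh1, the factor that starts secretory differentiation and a direct target of HES1 repression, had 34.5 and 36.3 CPM in KO libraries, against 23.3 and 24.4 CPM in WT libraries. Its groups did not overlap, with a log2 fold change of 0.57 (SE 0.10, edgeR adjusted p = 0.0532). DESeq2 called Atoh1 (adjusted p = 0.043) and limma-voom did not (adjusted p = 0.0573). Hes1 CPM divided by Atoh1 CPM was 0.619 and 0.601 in KO libraries, against 1.24 and 1.18 in WT libraries. This follows from the lower Hes1 and the higher Atoh1 values, and the ratio was not tested. Neurog3, which commits enteroendocrine progenitors, had 2.04 and 2.49 CPM in KO libraries, against 0.385 and 0.715 CPM in WT libraries (2.02, edgeR adjusted p = 0.0715), and DESeq2 called it (adjusted p = 0.0323, range 0.0323 to 0.385 over the alternatives). Gfi1, which acts downstream of Atoh1, was at 7.03 ± 1.78 CPM in KO and 4.21 ± 0.233 CPM in WT (0.74, edgeR adjusted p = 0.139). The later goblet cell factors Spdef and Foxa2 did not share this direction. Spdef was at 29.4 ± 3.09 CPM in KO and 34.4 ± 5.76 CPM in WT (-0.23), and its genotypes overlapped. Foxa2 was at 7.73 ± 1.61 CPM in KO and 15.8 ± 7.13 CPM in WT (-1.03, edgeR adjusted p = 0.152). Foxa2 was called lower with sex as a covariate (edgeR adjusted p = 0.0455), a fit that called 9.48% of all genes. Its log2 fold change was -1.44 without WT replicate 1 and -0.44 without WT replicate 2. Foxa1 (0.23) was higher in both KO libraries, at 78.48 and 73.34 CPM, against 56.42 and 73.27 CPM in WT libraries, but did not pass. Neurod1 (0.41) overlapped between genotypes and did not pass, and Pou2f3 of tuft cells was too low to test.

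**Figure D4:**
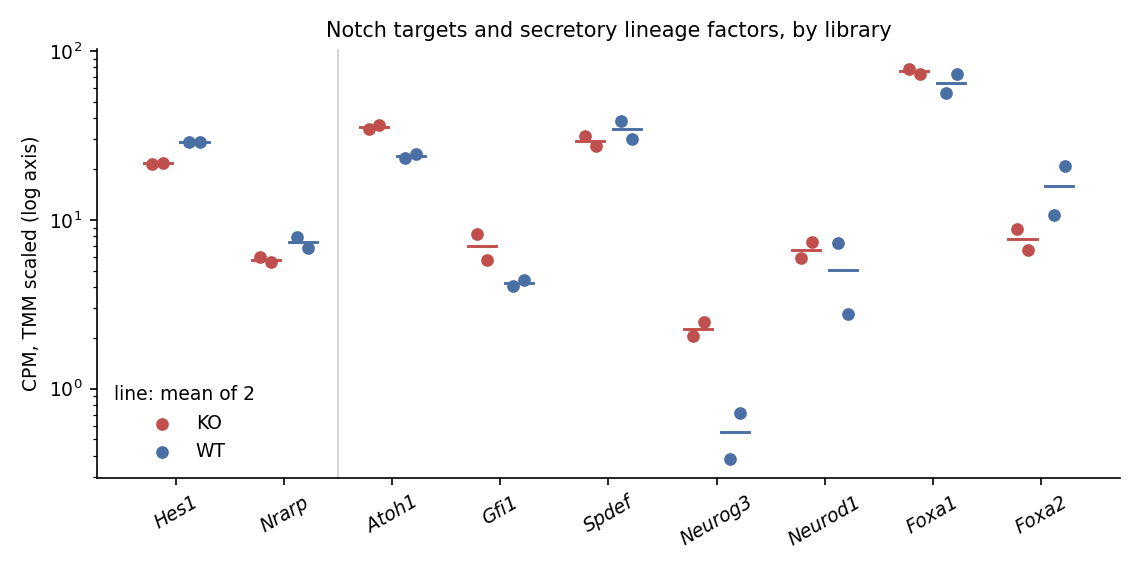
Levels in CPM (log axis) of the Notch targets Hes1 and Nrarp, left of the vertical line, and of the secretory lineage factors, with KO in red on the left, WT in blue on the right and a line at the mean of 2 libraries. Hes1 and Nrarp points were lower in KO, while those of Atoh1, Gfi1 and Neurog3, and narrowly Foxa1, were higher in KO. Foxa2 points were lower in KO, and those of Spdef and Neurod1 overlapped between genotypes.

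Products of mature lineages were set beside these factors. Of 7 goblet cell genes edgeR called none and DESeq2 called 3, Agr2 (higher), Zg16 and Clca1 (lower), with a median log2 fold change of -0.25. Over all genes, edgeR called 3.61% and DESeq2 12.3%. The mucin gene Muc2 was at 1371 and 1371 CPM in KO libraries, against 1668 and 1658 CPM in WT libraries. Agr2, whose product folds mucins, was at 453 and 411 CPM in KO libraries, against 308 and 288 CPM in WT libraries. Of 7 absorptive colonocyte genes the water channel gene Aqp8 fell (-1.67, edgeR adjusted p = 0.0434) and no other was called by edgeR, with a median of -0.30. The anion exchanger gene Slc26a3 of the same list had 30.8 and 31.96 CPM in KO libraries, against 21.7 and 21.4 CPM in WT libraries (0.54, edgeR adjusted p = 0.0566). Reg4 and Kit mark the deep crypt secretory cells that display Delta-like ligands in the colon. Reg4 had 31.0 and 61.2 CPM in KO libraries, against 83.8 and 61.1 CPM in WT libraries, and Kit had 27.2 and 31.8 CPM against 33.1 and 25.7 CPM. Neither was called by edgeR or DESeq2, and both overlapped between genotypes. Among 5 enteroendocrine genes edgeR called none, with a median of 0.15 over members of both signs. The proglucagon gene Gcg had 22.2 and 14.0 CPM in KO libraries, against 6.12 and 5.68 CPM in WT libraries (1.62, edgeR adjusted p = 0.0505), and DESeq2 called it (adjusted p = 8.39e-05, range 8.39e-05 to 0.378 over the alternatives). The granule protein gene Chga had 106 and 135 CPM in KO libraries, against 334 and 136 CPM in WT libraries (-0.97, edgeR adjusted p = 0.227). Of 4 tested tuft cell genes neither tool called any, with a median of 0.48 over members of both signs. Hpgds was at -0.66 and Alox5ap at 1.11, while Dclk1 and Trpm5 had 36 counts or fewer in each library. The genes named from these lists and from the marker lists that follow were chosen after their values were seen.

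Epcam, which marks epithelium, the labelled source of these cells, had 1060 and 1031 CPM in KO libraries, against 1331 and 1521 CPM in WT libraries. Markers of several other cell types stood at different levels in the genotypes, and their part in the values above was not tested. In such bulk samples fewer cells of a type and less RNA per cell cannot be told apart. The summed level of 9 epithelial markers was 6727 and 6143 CPM in KO libraries, against 7169 and 8990 CPM in WT libraries, with 5 of the 9 lower and 1, Cdx1, higher without overlap, beside 32.2% and 31.1% of all genes. EdgeR called none of these 9 and DESeq2 called 2, Vil1 and Cldn7, both lower. Over all genes tested, edgeR called 1.72% higher in KO, DESeq2 called 12.3% in either direction, and 7285 of 14861 log2 fold changes were positive. These shares stand beside each list below. Of 8 macrophage markers 3 rose by edgeR (DESeq2 called 6) and all 8 had positive log2 fold changes, and their sum was 129 and 126 CPM in KO libraries, against 51.7 and 59.4 CPM in WT libraries. The sum of 8 pericyte and smooth muscle markers was 24.9 and 38.0 CPM in KO libraries, against 11.0 and 14.8 CPM in WT libraries, with 6 of 7 tested log2 fold changes positive. EdgeR called none of them and DESeq2 called 3, Pdgfrb, Cspg4 and Myh11, all higher. Of 7 fibroblast markers all were positive, edgeR called none and DESeq2 called 1, Lum, and they summed to 67.3 and 581 CPM in KO libraries, against 53.7 and 78.1 CPM in WT libraries, so KO replicate 2 stood apart, and haemoglobin transcripts were also highest there. Endothelial markers, of cells rich in Notch1, Dll4 and Jag1, summed to 15.6 and 16.0 CPM in KO libraries, against 6.75 and 9.93 CPM in WT libraries. Most of that sum was Pecam1 and Vwf, whereas Cldn5 and Emcn were at 0 or near it in all libraries. EdgeR called no marker of endothelium, T cells, B cells, neutrophils, or enteric glia and neurons. DESeq2 called Vwf and the T cell marker Cd4, both higher. T cell markers summed to 55.3 and 46.0 CPM in KO libraries, against 41.6 and 43.2 CPM in WT libraries, and B cell and neutrophil sums overlapped between genotypes.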

How the data were processed

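RNA of 2 KO and 2 WT samples was enriched for mRNA on oligo-dT beads and made into Illumina libraries, per the labels' protocols. RSEM 1.2.29, STAR 2.4.2a, FastQC 0.11.2 and the build mm10 are listed without roles, per the submitters' processing notes. The deposited table holds whole counts for each gene, not normalised by the authors, judged from their unequal totals. No source used here gives the annotation, the strandedness or any rounding of estimates, so reads of overlapping genes cannot be told apart. All 4 columns matched a sample title. Groups follow the genotype label. Replicate numbers follow accession order and pair nothing. Nothing in the labels says that samples are separate animals, though sex differed within each genotype, and p-values measure the spread between these samples only.

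Genes were kept with filterByExpr (14861 of 50600), scaled by TMM and tested with edgeR 4.0.16 in R 4.3.3 (quasi-likelihood F-test, legacy and robust, two-sided, 2 residual degrees of freedom). CPM are TMM-scaled, and intervals are 95%. Tested on simulated data, the fit gave the right sign to the larger changes, but more of its calls were unchanged genes than the threshold allows for. A count of 0 allows up to 3 counts, 0.117 to 0.145 CPM per library, for counting error only. GENCODE M21 (GRCm38, the assembly of mm10) held 99.56% of the gene identifiers and gave coordinates (1-based), lengths and transcripts. RefSeq gave promoters.

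The members and lists were chosen with earlier results of these data known. All 10 members are named. Of each pathway list, called genes and the 2 most abundant are named, with the secretory fate factors that were tested and Mettl14. A gene that this rule names is not reported here. Alternatives were other scalings, DESeq2 1.42.0, limma-voom (limma 3.58.1), other edgeR options, other filters, sex as a covariate (1 residual degree of freedom) and omission of each library. The sex term contrasts the male with the female libraries and takes up anything else that differs between these pairs.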

Additional observations from a re-analysis of the deposited data

Results flagged for a closer look

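Jag2 and Notch3 went in opposite directions in the sexes, each with 1 KO and 1 WT library, and the difference between sexes was not tested. The log2 ratio of KO to WT for Notch3 was -0.17 in males and 0.15 in females, on 15 to 18 counts per library. For Jag2 it was -0.065 in males and 0.16 in females.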

How the results depend on the processing

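No paired analysis was possible by replicate number because the labels share none between genotypes. The fit with sex as a covariate sets 1 KO against 1 WT library within each sex, a pairing read from the counts. Calls over all genes numbered 537, against 1774 with DESeq2, 1632 without a filter and 1409 with sex as a covariate, and they ran from 0 to 2290 when single libraries were left out (0 without KO replicate 1 or 2, with 2257 and 1987 at an unadjusted p under 0.05; 1248 without WT replicate 1; 2290 without WT replicate 2). Library size scaling moved the median of all genes to 0.15 (log2) and called 604 higher and 186 lower, against 255 and 282 with TMM. Calls over all genes were 790 with library size scaling, 681 with upper quartile factors and 754 with a filter of CPM 1 in 2 libraries. The share of all genes called was 3.61% in the main fit, 12.3% with DESeq2 and 9.48% with sex as a covariate. The main fit tested 48 genes of the wider pathway lists and 87 of the marker lists. List counts rose or fell along with calls over all genes in most settings, and whether they exceeded these shares was not tested. Of the 10 Notch genes, 0 were called, 1 (Notch2) with sex as a covariate, and from 0 to 2 without single libraries (Notch2 and Rbpj without WT replicate 2). Of the wider pathway lists 2 were called, 7 with DESeq2, 7 without a filter, 4 with a filter of CPM 1 in 2 libraries, 5 with sex as a covariate, and 0 to 11 without single libraries. Of the marker lists 4 were called, 10 with library size scaling, 9 with upper quartile factors, 21 with DESeq2, 12 without a filter, 8 with the CPM filter, 17 with sex as a covariate, and 0 to 17 without single libraries.

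Of 149 values of the Notch genes under the alternatives, 138 kept their direction and side of the threshold and 8 changed sign, all of Notch3 and Jag2 and none called. Notch3 was at 0.14 with library size scaling, 0.053 with upper quartile factors, 0.013 without the mitochondrial and 10 most abundant genes, 0.008 with no filter, and from -0.27 to 0.21 when single libraries were left out. Jag2 ran from -0.19 without WT replicate 2 to 0.33 without WT replicate 1. With the filter of CPM 1 in 2 libraries Notch3 was not tested. Of the other named genes, none called in either setting, library size scaling turned Rfng to 0.052, Mib1 to 0.064, Neurl1b to 0.015, Snw1 to 0.055 and Ncor1 to 0.027. Over the omissions of single libraries, Pofut1 ran from -0.061 to 0.18, Rfng from -0.25 to 0.074, Ep300 from -0.009 to 0.26, Dtx3l from -0.31 to 0.41 and Neurod1 from -0.10 to 1.25. The cause of these changes was not tested. Without WT replicate 2 the log2 fold changes of Spen, Atoh1, Neurog3 and Notch4 were 0.55, 0.64, 2.57 and 1.77, each above its value with all libraries. Depth limits Notch3 most.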

Other observations

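Notch4, a receptor known chiefly from endothelium, had 28.0 and 20.3 CPM in KO libraries, against 7.23 and 20.2 CPM in WT libraries. Of the endothelial markers, Pecam1 had 9.71 and 6.74 CPM in KO libraries, against 4.58 and 6.27 CPM in WT libraries, and Vwf had 4.43 and 6.20 CPM in KO libraries, against 0.771 and 2.02 CPM in WT libraries, while Cdh5, Kdr and Tie1 were at 0.507 CPM or less in all libraries. Their part in the Notch4 values was not tested. WT replicate 1 stood apart. Without WT replicate 2 the log2 fold change of Notch4 was 1.77, and without WT replicate 1 it was 0.24. With all libraries it was 0.81 (edgeR adjusted p = 0.341). Dlk1, a non-canonical ligand-like protein gene, had 15.03 and 19.9 CPM in KO libraries, against 23.2 and 18.7 CPM in WT libraries, and the genotypes overlapped. Dtx3l, a Deltex family ligase, was at 53.0 ± 12.2 CPM in KO and 53.0 ± 17.3 CPM in WT (SD, n = 2 each).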
